A study of Mus musculus with 5 samples.

Results

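The MHC class I presentation genes were 9 genes chosen by symbol, namely H2-K1, H2-D1, B2m, Tap1, Tap2, Tapbp, Psmb8, Psmb9 and Nlrc5, and all 9 were listed among the 32285 features of the T cell libraries and the 54987 features of the whole-tumor libraries. The rule uses symbols and no measured value. Their levels were described in cancer cells of tumors of 4T1, a mouse line used to model triple-negative breast cancer, and set against those of fibroblasts, macrophages, neutrophils and T cells of the same droplet library, and then between libraries. All tumors came from that line, carrying the Thy1.1 marker and placed in the mammary fat pad, and the hosts were BALB/c mice given as 12 weeks old. Doxorubicin (DOX) was injected intravenously as 3 doses of 5 mg/kg, 3 days apart, and tumors were then named sensitive or resistant by their growth, while control mice received saline. The 5 libraries were T cells enriched from DOX sensitive tumors, T cells enriched from DOX resistant tumors, and whole tumor labelled control, sensitive or resistant, with 1 library in each group. Each T cell library pooled 3 tumors. For the whole-tumor library titled resistant, another field named its source as a sensitive tumor, and the control's source was likewise given as a sensitive tumor, so these libraries are called by their title as control-labelled, sensitive-labelled and resistant-labelled.

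Class I molecules display short peptides from inside a cell on its surface, where CD8+ T cells read them. The immunoproteasome cuts proteins into peptides, the TAP transporter carries these into the endoplasmic reticulum, tapasin holds the transporter to empty class I molecules, and a heavy chain folds with the light chain around a fitting peptide. Interferon gamma is known to raise most genes of the pathway, partly through the transactivator NLRC5, and loss of the pathway is a well-known route by which tumor cells escape T cells.

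The RefSeq promoter windows (GRCm38.p6; 250 bases before a start site) of 7 of the 9 genes were matched by symbol, and those of Tap2 and Nlrc5 were not. The sequences below are shown because H2-K1 and H2-D1, the classical heavy chain genes, share a stretch around a kB motif (GGGATTCC, capitals in the H2-K1 and H2-D1 sequences), while the single match to an interferon regulatory factor motif (GAAANNGAA) was in B2m and the single match to a STAT motif (TTCNNNGAA) in Psmb8, likewise in capitals. The H2-K1 window lay at chr17:34000348-34000597 on the minus strand, its kB stretch at chr17:34000439-34000468, the H2-D1 stretch at chr17:35262913-35262942 on the plus strand, the B2m window, shown as 249 bases to end before the GENCODE start, at chr2:122147437-122147685 on the plus strand and the Psmb8 stretch at chr17:34198088-34198116 on the plus strand.
H2-K1 promoter: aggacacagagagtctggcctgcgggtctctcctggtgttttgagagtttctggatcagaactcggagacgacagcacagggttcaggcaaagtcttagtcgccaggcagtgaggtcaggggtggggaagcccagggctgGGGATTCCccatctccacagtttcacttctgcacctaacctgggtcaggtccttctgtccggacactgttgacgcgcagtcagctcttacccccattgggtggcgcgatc
H2-K1 kB stretch: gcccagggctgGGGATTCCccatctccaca
H2-D1 kB stretch: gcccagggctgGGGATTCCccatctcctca
B2m promoter: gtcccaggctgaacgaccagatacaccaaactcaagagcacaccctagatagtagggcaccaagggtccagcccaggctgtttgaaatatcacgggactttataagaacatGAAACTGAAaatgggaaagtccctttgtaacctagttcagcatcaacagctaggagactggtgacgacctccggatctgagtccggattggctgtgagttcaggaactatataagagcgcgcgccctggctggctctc
Psmb8 stretch: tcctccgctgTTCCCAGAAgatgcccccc

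The H2-D1 and Psmb8 stretches lie before their RefSeq start but past the outermost GENCODE start of the gene. The motifs were searched on both strands, in the letters given and in no other spelling. An interferon regulatory factor site spelled otherwise would be missed. Windows without a match, such as those of H2-K1 and H2-D1, are thus not shown to lack one. The kB motif was in 2 of the 7 windows and in 0.889% of all 32851 windows of the table, the interferon regulatory factor motif in 1 of 7 against 7.13%, and the STAT motif in 1 of 7 against 7.02%. Shorter motifs were common. TGACG was in 5 of 7 windows (B2m, H2-D1, H2-K1, Psmb9 and Tap1) against 17.8% of all windows, and CCAAT in 6 of 7 (all but Psmb8) against 33.8%. The start sites of Tap1 and Psmb9, which are read in opposite directions, were 225 bases apart, so their windows overlapped. Their TGACG matches are the same bases, and so are their CCAAT matches, so each site is counted for both genes. A match is a description of letters and not a binding site. In the GENCODE annotation (GRCm38), 7 of the 9 genes lay on chromosome 17, and the other two were B2m on chromosome 2 and Nlrc5 on chromosome 8.

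Depth differed widely. The libraries held 537293 to 35908799 unique molecular identifiers (UMIs, each a counted transcript copy) over 275 to 6116 barcodes, and after filtering 263 to 3448 cells were kept. Of the resistant T cell library's barcodes with at least 500 detected genes, 33.2% were over the mitochondrial limit, against 3.34% of the sensitive one's. The T cell libraries shared 31 barcodes with each other, and any other pair of libraries shared 0 to 4. Cells were gated on marker genes, none of them a member. T cell gates held 1867 of 3448 and 1759 of 3091 kept cells of the sensitive and resistant T cell libraries, so nearly as many other cells had come through the enrichment. Among these were 103 and 127 cancer cells, which had escaped magnetic depletion of Thy1.1 (CD90.1) cells. All 9 epithelial markers were detected in both cancer gates, with a summed level of 7526 and 7301 CPM (counts per 1000000 UMIs of the gate), and the 7 leukocyte markers summed to 23.9 and 40.4 CPM there, against 9644 and 9195 CPM in T cells.

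Levels are UMIs summed over the cells of a gate and scaled to CPM. Brackets give exact 95% intervals (Poisson for a level, conditional binomial for a ratio, Clopper-Pearson for a share), which cover counting error only. With 1 library per group no difference has a replicate check, no test was run, and "higher" or "lower" describes these libraries. Counts came from the 3′ end of transcripts, so one gene's level was not set against another's, apart from a quotient of 2 genes that is compared between gates alone. Beside each count of members past a fold stands the share of all genes with enough UMIs that lay past the same fold in the same direction.

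Cancer cells carried every gene of the pathway. Their levels stood below those of T cells and above those of fibroblasts for all 9 members in both T cell libraries, and on either side of those of macrophages. The heavy chain gene H2-K1 was at 1902 CPM [1848 to 1957] in cancer cells of the sensitive and at 1667 CPM in those of the resistant library, and H2-D1, the other classical heavy chain, was at 3208 and 2578 CPM. The light chain gene B2m, without which no class I molecule reaches the surface, was at 3595 and 2903 CPM. Among these 3 genes, cancer cells therefore held intermediate levels, since T cells had 2265 and 1995 CPM of H2-K1, and fibroblasts 1123 and 996 CPM.

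The transporter genes followed the same order. Tap1, the first subunit, was at 143 and 101 CPM in cancer cells of the sensitive and resistant libraries, at 208 and 183 CPM in T cells and at 69.5 and 56.0 CPM in fibroblasts. Tap2, its partner subunit, was at 162 and 108 CPM in cancer cells, at 230 and 179 CPM in T cells and at 77.8 and 50.6 CPM in fibroblasts. Tapbp, which encodes tapasin, spanned the narrowest range of these 3 gates, at 220 and 180 CPM in cancer cells, 250 and 207 CPM in T cells and 190 and 148 CPM in fibroblasts. Cancer cells were thus closer to fibroblasts in Tapbp than in Tap1 or Tap2.

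The immunoproteasome and the transactivator showed the widest gaps to fibroblasts. Psmb8, the catalytic subunit LMP7, was at 900 and 728 CPM in cancer cells, at 1061 and 1005 CPM in T cells and at 260 and 199 CPM in fibroblasts. Psmb9, the catalytic subunit LMP2, was at 337 and 249 CPM in cancer cells, at 536 and 603 CPM in T cells and at 108 and 74.5 CPM in fibroblasts. Nlrc5 was at 34.5 CPM [27.6 to 42.7] and 30.9 CPM in cancer cells, at 61.9 and 69.1 CPM in T cells and at 5.41 and 4.75 CPM in fibroblasts, where its intervals did not reach those of cancer cells in either library.

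**Figure D1:**
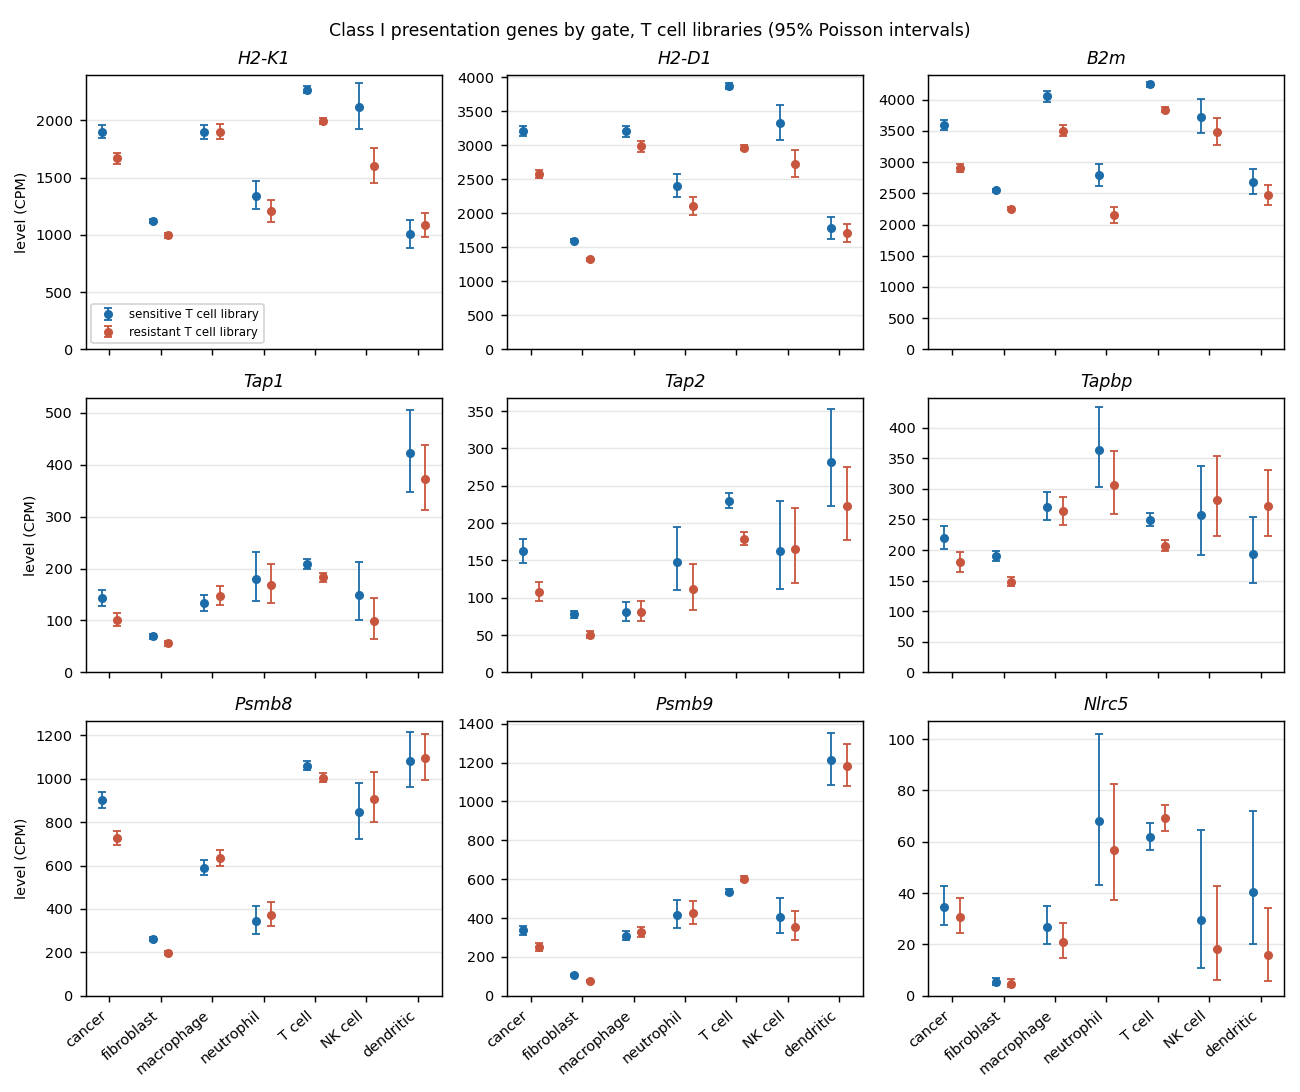
Level of each class I presentation gene (CPM, vertical axis from 0) in 7 gates of the sensitive (blue) and resistant (red) T cell libraries, with 95% Poisson intervals that cover counting error only. Fibroblasts are the lowest or next to lowest gate in each panel, and dendritic cells the highest for Tap1, Tap2, Psmb8 and Psmb9.

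As ratios to T cells, cancer cells ran from 0.557 (Nlrc5) to 0.882 (Tapbp) in the sensitive library and from 0.413 (Psmb9) to 0.872 (Tapbp) in the resistant one. All 9 members were thus under 1, while 50.5% and 52.1% of all genes were above 1. H2-K1 stood at 0.840 [0.813 to 0.867] and 0.836 in the 2 libraries, so the gap of this heavy chain gene was alike in both. Within the same ranges were H2-D1 (0.829 and 0.870), B2m (0.846 and 0.756), Tap1 (0.689 and 0.552), Tap2 (0.705 and 0.605), Psmb8 (0.849 and 0.725) and, in the sensitive library, Psmb9 (0.628). None of the 9 members was more than 2-fold lower than in T cells in the sensitive library, where 18.8% of all genes were. In the resistant library 2 were, Psmb9 (0.413) and Nlrc5 (0.447), against 18.5% of all genes. All 9 passed the UMI filter in both. Cancer cells were the deepest of these cells, at a median of 20725 and 21367 UMIs per cell against 3945 and 4529 in T cells.

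Against fibroblasts the same cells were higher in all 9 members, from 1.16 (Tapbp) to 6.38 (Nlrc5) in the sensitive and from 1.21 to 6.496 for the same genes in the resistant library. Of all genes, 55.8% and 55.2% were higher in cancer cells than in fibroblasts. More than 2-fold higher were 6 members in the sensitive library, H2-D1 (2.01), Tap1 (2.06), Tap2 (2.08), Psmb9 (3.11), Psmb8 (3.47) and Nlrc5, against 17.6% of all genes. In the resistant library 4 were, Tap2 (2.14), Psmb9 (3.35), Psmb8 (3.67) and Nlrc5, against 17.4% of all genes, with H2-D1 (1.95) and Tap1 (1.80) just under. H2-K1 (1.69 and 1.67) and B2m (1.41 and 1.29) were under it in both. The median gene was itself 1.10-fold and 1.09-fold higher in cancer cells than in fibroblasts. Scaled by that median, 3 members were past 2-fold in each library, and all 9 were still above 1 in both.

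In the sensitive library macrophages and cancer cells had nearly equal heavy chain levels. H2-K1 was at 1902 CPM in cancer cells and 1894 CPM in macrophages of the sensitive library, with overlapping intervals, and at 1667 against 1902 CPM in the resistant one. H2-D1 gave ratios of 1.00 [0.969 to 1.03] and 0.864. In the sensitive library 1 member was more than 2-fold higher in cancer cells, Tap2 at 2.01 [1.67 to 2.42], against 26.9% of all genes, and in the resistant library 0 were, Tap2 then standing at 1.33, against 25.7%. Tapbp was lower in cancer cells in both, at 0.814 and 0.686, as was B2m at 0.887 and 0.829. Psmb8 (1.53 and 1.15) and Nlrc5 (1.29 and 1.49) were above 1 in both, although the interval of Nlrc5 in the sensitive library spanned 1. Tap1 (1.08 and 0.685) and Psmb9 (1.09 and 0.762) were above 1 in the sensitive library alone, where their intervals reached 1. The median gene was 1.25-fold and 1.23-fold higher in cancer cells than in macrophages. Scaled by it, 3 and 2 of the 9 members were above 1, in place of 7 and 3. Before scaling, 61.45% and 60.1% of all genes were above 1.

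Neutrophils showed a mixed picture. Cancer cells were higher in H2-K1 (1.42 and 1.38), H2-D1 (1.34 and 1.22), B2m (1.29 and 1.35) and Psmb8 (2.602 and 1.95), and lower in Tap1 (0.794 and 0.6005), Tapbp (0.606 and 0.588), Psmb9 (0.808 and 0.587) and Nlrc5 (0.507 and 0.543), although the interval of Tap1 in the sensitive library reached 1.06. Past 2-fold was 1 member in the sensitive library, Psmb8, against 44% of all genes, and 0 in the resistant library against 43.8%. Tap2 (1.095 and 0.972) had intervals that spanned 1. More than 2-fold lower were 0 members in either library, against 32.6% and 31.1% of all genes, and 2 and 4 once scaled by the median gene. The median gene was 1.38-fold and 1.37-fold higher in cancer cells, so H2-D1 and B2m fell under 1 once scaled by it. Neutrophils held a median of 2170 and 2398 UMIs per cell, and Nlrc5, on 23 UMIs in all of them, missed the filter in the sensitive library.

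Dendritic cells, the professional presenters, were few (18 and 33 cells). Lower in cancer cells by more than 2-fold were 2 members in the sensitive library, Psmb9 (0.278) and Tap1 (0.340), against 17% of all genes, and 3 in the resistant library, Psmb9 (0.211), Tap1 (0.272) and Tap2 (0.487), against 18%. The heavy chains went the other way. H2-K1 was 1.90-fold and 1.54-fold higher in cancer cells than in dendritic cells, and H2-D1 1.80-fold and 1.51-fold. B2m (1.34 and 1.18) was above 1 too, Psmb8 (0.830 and 0.664) below it, Tap2 in the sensitive library at 0.574, and Tapbp at 1.13 and 0.662. Nlrc5 rested on 11 and 6 UMIs in dendritic cells and did not pass the filter.

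**Figure D2:**
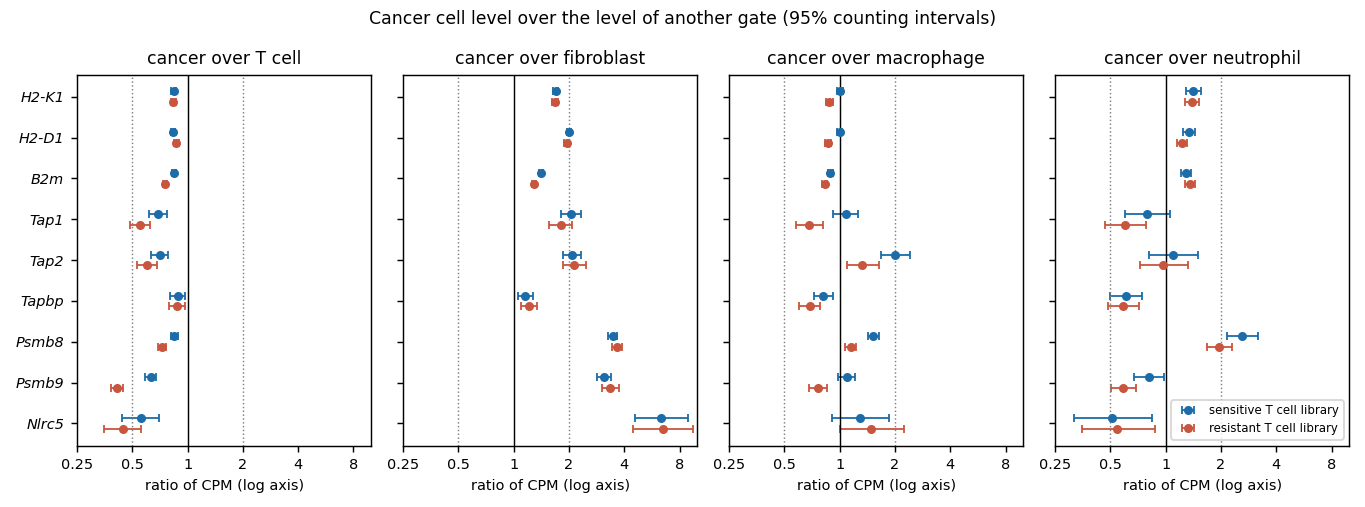
Ratio of the level in cancer cells to that in T cells, fibroblasts, macrophages and neutrophils (log axis) for each member in the sensitive (blue) and resistant (red) T cell libraries, with 95% counting intervals and dotted lines at 2-fold. Every ratio to T cells is under 1 and every ratio to fibroblasts over 1.

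The lists of other class I genes were counted the same way. More than 2-fold higher in cancer cells than in fibroblasts of the sensitive library were 8 of 14 other class I heavy chain genes, 1 of 7 loading and trimming genes, 2 of 11 other proteasome genes, 4 of 13 regulators, 1 of 7 interferon receptor and feedback genes and 2 of 10 interferon gamma response genes, and lower were 2, 2, 0, 0, 3 and 1, against 17.6% higher and 18.7% lower of all genes. In the resistant library 6, 1, 2, 6, 1 and 3 of the same lists were higher and 3, 2, 0, 0, 2 and 2 lower, against 17.4% and 18.1%. Against T cells of the sensitive library 1, 0, 0, 1, 2 and 4 were higher and 2, 0, 1, 2, 4 and 2 lower, against 20.4% and 18.8%. These counts include genes under the UMI filter, such as 2 of the 14 heavy chain genes in each comparison. In the comparison with T cells the loading and proteasome lists, like the members, were mostly within 2-fold.

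With the 7 largest gates ordered by level, fibroblasts came last for 8 of 9 members in the sensitive library, the exception being H2-K1 with dendritic cells below them, and for 8 of 9 in the resistant one, the exception being B2m with neutrophils below them. Cancer cells took a middle place, from the third to the sixth. T cells led for H2-K1 and B2m in both libraries, dendritic cells for Tap1, Tap2, Psmb8 and Psmb9, and neutrophils for Tapbp. Neighbours often had overlapping intervals. In the sensitive library these included cancer cells and macrophages for H2-K1 and H2-D1, cancer, natural killer (NK) and neutrophil gates for Tap1, and T cells and neutrophils for Nlrc5.

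The balance between the immunoproteasome subunits varied by gate too. For each Psmb8 UMI, Psmb9 had 0.374 [0.345 to 0.405] UMIs in cancer cells of the sensitive and 0.342 in those of the resistant library. The values were, in the same order, for fibroblasts 0.417 and 0.374, T cells 0.505 and 0.6003, macrophages 0.523 and 0.516, and neutrophils 1.21 and 1.14. The quotient depends on how well each 3′ end is counted, so only its change between gates is read here. Cancer cells had the smallest Psmb9 share of the 5 gates in both libraries, but their interval and that of fibroblasts overlapped in both.

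Within cancer cells the heavy and light chain genes were broadly detected. With each cell reduced by random thinning to 1000 UMIs, B2m was seen in 94.2% [87.7 to 97.8] of 103 cancer cells of the sensitive library and 92.9% of 126 of the resistant one, H2-D1 in 86.4% and 88.1%, and H2-K1 in 79.6% and 73.0%. Psmb8 was seen in 51.5% and 47.6% of them. The rest were sparse at this depth, from 4.85% (Nlrc5) to 19.4% (Tapbp) of the sensitive and from 4.76% to 20.6% (Psmb9) of the resistant library's cancer cells.

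Fibroblasts set a comparison for these shares. Psmb8 was seen in 20.4% [17.6 to 23.3] and 15.5% of thinned fibroblasts, and Nlrc5 in 0.636% and 0.348%, on 5 and 2 cells. Tapbp, at 18.1% and 11.8%, was nearer to the cancer cell shares. Without thinning, Nlrc5 was seen in 44.7% and 41.7% of cancer cells and 7.65% and 6.43% of fibroblasts, whose median depth was 12988 and 13710 UMIs. No gate is known to lack class I genes, so free RNA was gauged on other genes. The 8 T cell markers summed to 8.93 CPM in cancer cells of the sensitive library, against 6372 CPM in its T cells.

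From cell to cell, the 3 chain genes spread widely. At 5000 UMIs a cell, the sum of H2-K1, H2-D1 and B2m UMIs in cancer cells had a median of 45 (10th to 90th percentile 22 to 65, 91 cells) in the sensitive and 34 (24 to 54, 104 cells) in the resistant library. Fibroblasts had medians of 22 and 22, with ranges of 9.3 to 50 and 9 to 39, and CD8+ T cells had medians of 50 and 42, on the 424 of 1273 and 662 of 1518 cells that reached this depth. No cancer cell of either library lacked all 3 genes at that depth, and the variance of the sum was 8.77 and 4.46 times its mean. H2-K1 and H2-D1 counts went together across cancer cells, with Pearson r of 0.764 and 0.592, and across fibroblasts with 0.7499 and 0.6501. The cells of each r share a library and a thinned depth and are not replicates. Psmb8 and Psmb9 counts had r of only 0.180 and 0.116 across the same cancer cells, at mean counts of 4.33 and 1.65 in the sensitive library.

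Whether the pathway differed between tumors that did and did not respond to DOX was asked next, gate by gate, in the T cell libraries. All 9 members were higher in cancer cells of the sensitive than of the resistant library, by modest amounts, and the same held in fibroblasts, while macrophages showed no common direction and CD8+ T cells were split. Here the filter asked for 100 UMIs over both libraries, which all 9 members passed in cancer cells, fibroblasts and CD8+ cells.

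In cancer cells the ratio of sensitive to resistant ran from 1.12 (Nlrc5) to 1.495 (Tap2). Tap2 stood at 162 against 108 CPM [ratio 1.28 to 1.74], Tap1 at 143 against 101 CPM (1.42), and Psmb9 at 337 against 249 CPM (1.35). H2-D1 (1.24), B2m (1.24), Psmb8 (1.24), Tapbp (1.22) and H2-K1 (1.14) lay closer to 1, and the interval of Nlrc5 (0.817 to 1.53) spanned it. A ratio above 1 was found for 9 of 9 members and for 62.3% of all genes. Past 1.5-fold were 0 members, against 5.12% of all genes. The median gene stood at 1.06, and every member remained above 1 when scaled by it, from 1.06 (Nlrc5) to 1.41 (Tap2).

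Fibroblasts gave a similar list, with ratios from 1.13 (H2-K1 and B2m) to 1.54 (Tap2). Tap2 was at 77.8 against 50.6 CPM [ratio 1.38 to 1.72], Psmb9 at 108 against 74.5 CPM (1.46) and Psmb8 at 260 against 199 CPM (1.31). The ratio was above 1 for 9 of 9 members and 65.4% of all genes, and past 1.5-fold for 1 member, Tap2, against 5.75% of all genes. Tap2 fell to 1.45 once scaled by the median gene (1.06). The interval of Nlrc5, on 68 and 46 UMIs, was 0.771 to 1.69.

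**Figure D3:**
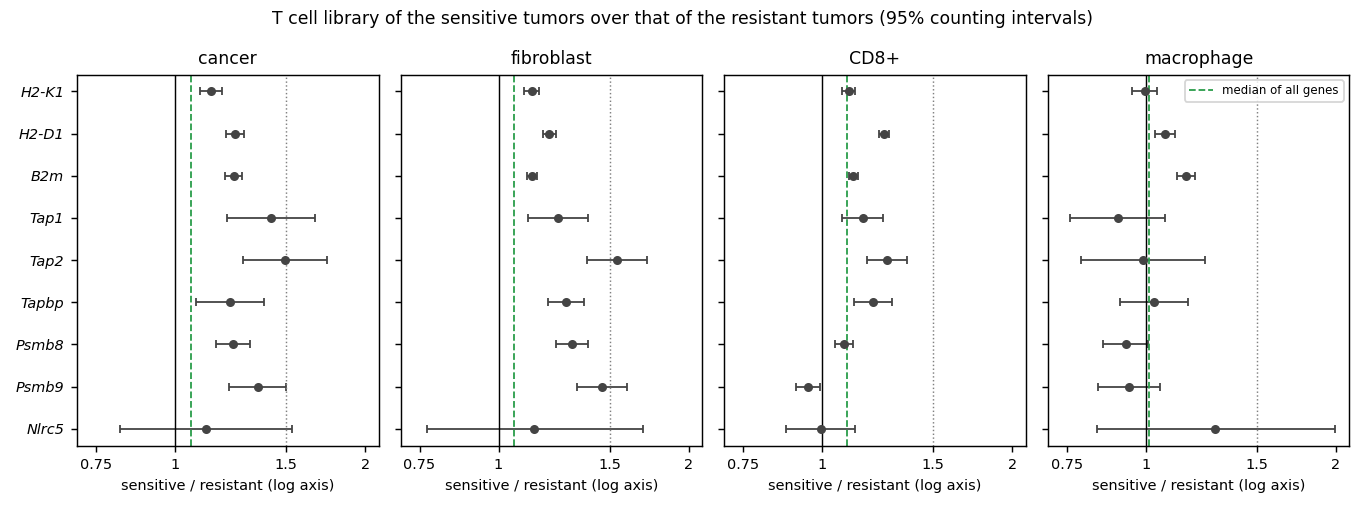
Ratio of the sensitive to the resistant T cell library (log axis) for each member in cancer cells, fibroblasts, CD8+ T cells and macrophages, with 95% counting intervals, a dotted line at 1.5-fold and a dashed green line at the median of all genes passing the UMI filter. All 9 points lie right of that median in cancer cells and fibroblasts, and Psmb9 lies left of 1 in CD8+ cells.

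CD8+ T cells (1273 and 1518 cells) had a ratio above 1 for 7 of 9 members, against 69.8% of all genes, whose median was 1.10 (0.13 on the log2 scale). H2-D1 was at 3713 against 2967 CPM (1.25), Tap2 at 226 against 178 CPM (1.27) and Tapbp at 245 against 204 CPM (1.20), with Tap1 at 1.16. Psmb9 was at 583 against 614 CPM, a ratio of 0.9504 [0.911 to 0.991], and Nlrc5 at 67.3 against 67.6 CPM. Scaled by the median gene, Psmb8 (0.989) also fell under 1, and H2-K1 (1.00) and B2m (1.02) lay beside it. CD4+ cells (195 and 51) had a ratio above 1 for 5 of 9 members, against 58.3% of all genes. H2-D1 was higher there, at 1.30 [1.20 to 1.41], and the other members past the filter had intervals that reached 1, while Nlrc5, under the filter, stood at 0.466 on 43 and 17 UMIs.

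Macrophages (184 and 162 cells) had a ratio above 1 for 4 of 9 members, H2-D1 (1.07), B2m (1.16), Tapbp (1.03) and Nlrc5 (1.29), against 53.4% of all genes. H2-K1 was at 1894 and 1902 CPM, and Psmb8 at 590 and 635 CPM, with Tap2 at 0.991 and Psmb9 at 0.942. All 9 lay between 0.903 (Tap1) and 1.29, and Nlrc5, on 54 and 39 UMIs, did not pass the filter. Neutrophils, NK cells and dendritic cells had 7, 6 and 6 members above 1, against 55.9%, 47.3% and 54.6% of all genes. B2m in neutrophils, at 2789 against 2149 CPM (1.30), had an interval of 1.19 to 1.42.

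Interferon gamma response genes, like the members, were mostly higher in cancer cells and fibroblasts of the sensitive library, but not in macrophages. The list of 10 such genes summed to 971 against 547 CPM in cancer cells and 888 against 508 CPM in fibroblasts of the sensitive and resistant libraries, and to 820 against 1156 CPM in macrophages. The 7 interferon-stimulated genes summed to 490 against 399 CPM in cancer cells but to 505 against 609 CPM in fibroblasts, opposite to the members there, and to 628 against 949 CPM in macrophages. Of the 10 interferon gamma response genes, 7 were past 1.5-fold in cancer cells and 8 in fibroblasts, with none past it the other way, against 5.12% and 5.75% of all genes. In cancer cells the chemokine Cxcl9 was at 50.3 against 14.3 CPM (3.51), and the interferon-induced GTPase genes Iigp1 (1.98), Gbp2 (1.92) and Igtp (1.89) followed. Fcgrt, the neonatal Fc receptor, stood lower at 0.432 on 18 and 46 UMIs. In fibroblasts the largest ratios were those of Cxcl10 (3.66), Gbp4 (3.09), Gbp5 (2.87), the regulator Irf8 (2.31) and the feedback inhibitor Socs1 (2.09).

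The rest of the class I machinery was counted by list. Of the 7 peptide loading and trimming genes, 0 were past 1.5-fold in cancer cells and 1 in fibroblasts. Of the 11 other proteasome genes, 1 was higher and 1 lower in cancer cells, and 1 higher in fibroblasts. Of the 14 other class I heavy chain genes, 8 were higher and 1 lower in cancer cells, where 8 passed the filter, and 3 higher in fibroblasts. These counts stand against the 5.12% of all genes in cancer cells and 5.75% in fibroblasts given above. In CD8+ cells H2-Q6, one of these, was at 969 against 584 CPM (1.66). The mitochondrial share of the libraries, given above, also differed, and its part in these differences was not tested. Keeping the barcodes over the limit left the count of members past 1.5-fold unchanged in cancer cells and fibroblasts.

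In the whole-tumor libraries the sensitive- and resistant-labelled samples were set against the control-labelled one, whose identity rests on its title. T cells made up 12.5% of kept cells in the control-labelled, 1.11% in the sensitive-labelled and 4.56% in the resistant-labelled library, and whether the titles or the source fields are right was not tested. Every member was higher in neutrophils of the sensitive- and resistant-labelled libraries, and in cancer cells of the latter, than in the same gate of the control-labelled library. Nlrc5 had intervals that spanned 1 in each of these comparisons. Of all genes, 64.73% and 64.45% were higher in these neutrophils and 48.5% in these cancer cells. Cells were few. The control-labelled library held 331 neutrophils and 24 cancer cells, the sensitive-labelled one 234 and 5, and the resistant-labelled one 140 and 40, and the 5 cancer cells were too few to use.

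Neutrophil levels came first, since these cells were best sampled. H2-K1 was at 468, 892 and 632 CPM for control, sensitive and resistant labels in turn. H2-D1 was at 2073, 3694 and 3368 CPM, and B2m at 1848, 3476 and 2690 CPM. The control was lowest for all 3 chain genes, with intervals apart from those of the other two libraries, and the sensitive-labelled library was highest.

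The processing genes were low in control neutrophils. Tap1 was at 41.3 CPM [27.2 to 60.04] in control, 104 CPM in sensitive-labelled and 150 CPM in resistant-labelled neutrophils, and Tap2 at 33.6, 68.4 and 92.1 CPM. Tapbp was at 84.1, 248 and 261 CPM. The immunoproteasome genes followed, Psmb8 at 76.4, 213 and 221 CPM and Psmb9 at 93.2, 284 and 273 CPM. Nlrc5 rested on 4, 8 and 5 UMIs and did not pass the filter, which the other 8 members did.

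Past 1.5-fold over control were 9 of 9 members in sensitive-labelled neutrophils, from 1.78 (H2-D1) to 3.04 (Psmb9), or 3.32 for Nlrc5 on its few UMIs, against 22.2% of all genes. In resistant-labelled neutrophils 7 of 9 were, with Tap1 (3.65), Tapbp (3.10), Psmb9 (2.93), Psmb8 (2.89) and Tap2 (2.74) in front and H2-K1 (1.35) and B2m (1.46) under the fold, against 16.4% of all genes. A filter on summed UMIs, which was used first, gave backgrounds of 24.8% and 21.1%. Between neutrophils of the sensitive- and resistant-labelled libraries no member was past 1.5-fold, H2-K1 (1.41) and Tap1 (0.690) lying farthest from 1. Past that fold were 10.51% of all genes higher and 8.196% lower in the sensitive-labelled library. The median gene stood at 1.13 and 1.10 over control, and scaled by it 9 and 6 members were past 1.5-fold.

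The control library also differed in neutrophil state. S100a8 was at 110438 CPM in its neutrophils, against 68051 and 71502 CPM, and Ngp, Camp and Ltf, genes of immature neutrophils, summed to 4054, 1923 and 33.8 CPM, with a UMI of them in 18.4%, 10.3% and 3.57% of cells. Leaving S100a8 and S100a9 out of the sums kept 9 and 7 members past 1.5-fold. Among neutrophils without a UMI of the immature genes the counts were again 9 and 7, but H2-K1 and B2m came down to 1.02 and 1.24 in the resistant-labelled library. These alternatives were chosen after the data had been seen.

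Cancer cells of the resistant-labelled library were higher than those of the control in all 9 members. H2-K1 stood at 2082 against 1336 CPM (1.56), H2-D1 at 5456 against 3165 CPM (1.72) and B2m at 6116 against 3487 CPM (1.75). Psmb8 was at 682 against 287 CPM (2.38) and Psmb9 at 274 against 79.9 CPM (3.43), the widest well-measured gap, with an interval of 2.36 to 5.14. Tapbp was at 210 against 132 CPM (1.59) and Tap2 at 70.8 against 37.5 CPM (1.89).

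Tap1 at 57.9 against 14.99 CPM (3.87) and Nlrc5 at 27.0 against 14.99 CPM (1.80) each rested on 6 control UMIs, and these 2 did not pass the filter. Past 1.5-fold were 9 of 9 members, against 10.3% of all genes, or 19.3% with the filter on summed UMIs. When each cell counted equally, 7 were past it, H2-K1 falling to 1.30 and B2m to 1.49. Neutrophil markers summed to 1736 CPM in control and 966 CPM in resistant-labelled cancer cells, and the part of free neutrophil RNA in the difference was not tested.

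**Figure D4:**
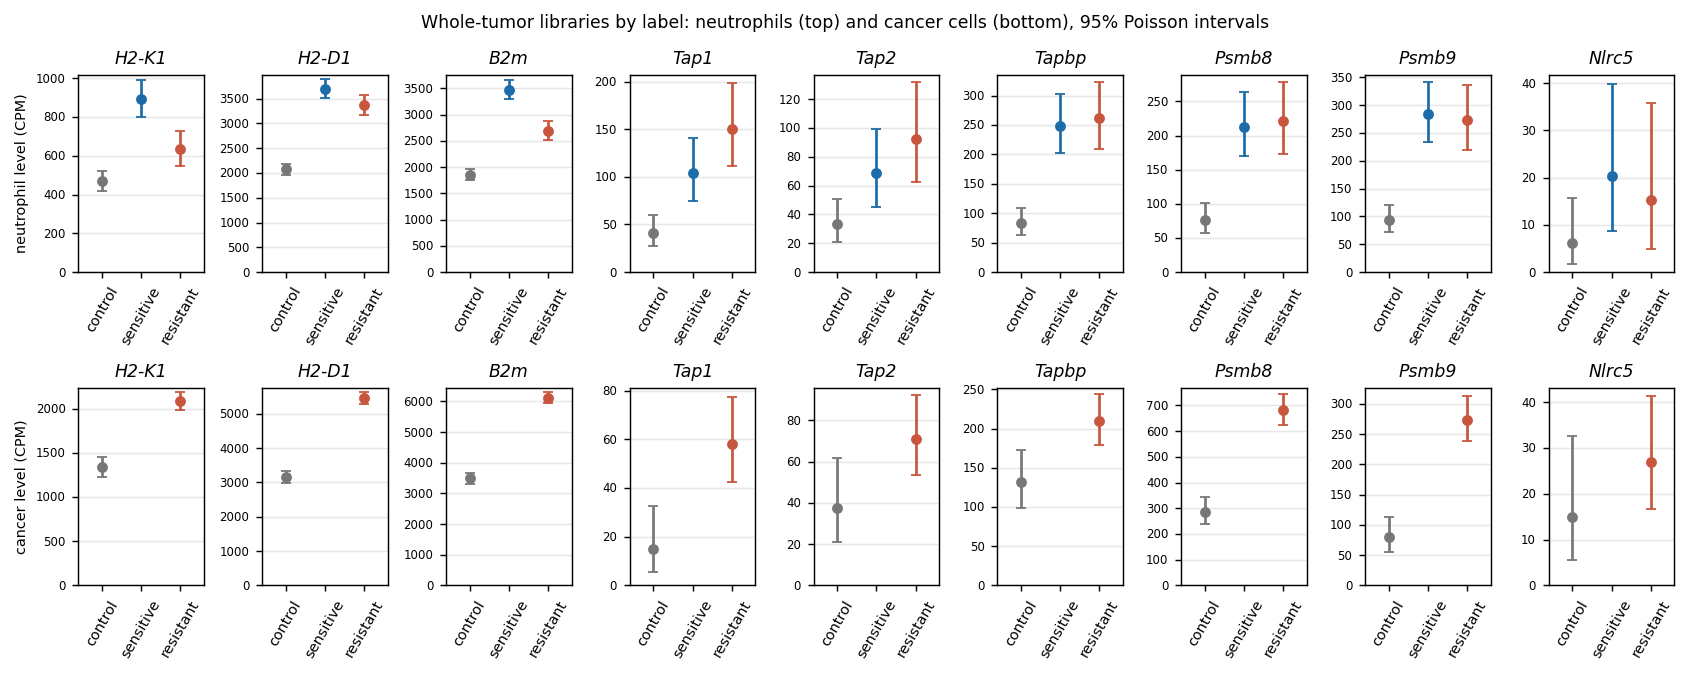
Level (CPM, vertical axes from 0) of each member in neutrophils (top row) and cancer cells (bottom row) of the control-labelled (grey), sensitive-labelled (blue) and resistant-labelled (red) whole-tumor libraries, with 95% Poisson intervals. The control is lowest in every panel, and the sensitive-labelled library has no point in the bottom row because it held 5 cancer cells.

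Macrophages were sparser, at 14 and 40 cells. Past 1.5-fold in the resistant-labelled library were 4 of 9 members, H2-D1 (1.69), Psmb8 (1.64), Tap1 (4.85 [1.26 to 41.4] on 41 against 2 UMIs) and Tap2 (2.72 [0.672 to 23.8] on 23 against 2 UMIs), against 10.4% of all genes, or 26.5% with the filter on summed UMIs. Only 4 members passed the filter there. H2-K1 was at 1791 against 1331 CPM (1.35) and B2m at 7012 against 4949 CPM (1.42). Tapbp (1.18) and Psmb9 (1.06) had intervals that spanned 1, and Nlrc5 had 5 UMIs against 0.

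T cells of the whole tumors (12 in the resistant-labelled and 61 in the control-labelled library) showed no common direction. H2-K1 was at 2052 against 2250 CPM (0.912), B2m at 5110 against 4924 CPM (1.04) and H2-D1 at 5230 against 3833 CPM (1.37 [1.16 to 1.60]). Past 1.5-fold were 3 of 9 members, Psmb8 (1.85 [1.17 to 2.91]), Tap2 (1.51 on 8 and 11 UMIs) and Tap1 (2.78 [0.470 to 19.0] on 4 and 3 UMIs), against 26% of all genes, or 24.8% with the filter on summed UMIs. Psmb9 (1.36) and Tapbp (0.893) had intervals that spanned 1, Nlrc5 had 0 UMIs against 3, and 4 members passed the filter.

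Interferon-stimulated genes were higher alongside the members in neutrophils and cancer cells. Their list of 7 summed to 608, 2544 and 2220 CPM in control, sensitive- and resistant-labelled neutrophils, and to 39.96 and 430 CPM in cancer cells of the control and resistant-labelled ones. The 10 interferon gamma response genes summed to 296, 1343 and 1391 CPM in neutrophils and to 47.5 and 550 CPM in cancer cells. There 1 of the 10 passed the UMI filter, Gbp2 at 174 against 17.5 CPM (9.94), and 3 had 0 control UMIs. Named by the size of their ratio, these were Cxcl10 (11.9 and 33.0), Irgm1 (5.51 and 5.77) and Gbp2 (4.97 and 4.38) in neutrophils of the sensitive- and resistant-labelled libraries. In cancer cells Iigp1 (30.4 [5.25 to 1221]) and Gbp4 (21.1 [3.59 to 855]) rested on 1 control UMI each, and Igtp (18.0 [4.81 to 152]) on 2.

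Within the whole-tumor libraries, cancer cells again carried the chains at or above neutrophil levels. More than 2-fold higher than in neutrophils were 3 members in the control-labelled library, H2-K1 (2.86), Psmb8 (3.76) and Nlrc5 (2.45 on 6 and 4 UMIs), against 47.3% of all genes. In the resistant-labelled library 3 were, H2-K1 (3.29), B2m (2.27) and Psmb8 (3.09), against 41.9%. More than 2-fold lower was 1 member in each, Tap1 at 0.363 (on 6 and 27 UMIs) and 0.385, against 26.6% and 30.9% of all genes. Against the 61 and 12 T cells, members more than 2-fold lower in cancer cells were 2 in the control-labelled library, Tap2 (0.353 on 15 and 11 UMIs) and Psmb9 (0.360 on 32 and 23 UMIs), against 18.9% of all genes, and 1 in the resistant-labelled library, Tap2 at 0.440 on 8 T cell UMIs, against 14.8%. Nlrc5 had 0 UMIs in those 12 T cells, and only 4 of 9 members passed the filter in either comparison with T cells, these Tap2 and Psmb9 values not among them. The order seen in the T cell libraries did not hold throughout. In the control-labelled library all 9 members were lower in cancer cells than in T cells, where 53.3% of all genes were above 1. In the resistant-labelled one 4 of 9 were above 1, against 44.1% of all genes. These were B2m (1.20), Tapbp (1.16), H2-D1 (1.04) and H2-K1 (1.01), and the interval of B2m alone excluded 1.

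Against macrophages of the same whole-tumor libraries (14 and 40 cells), H2-D1 was higher in cancer cells, at 1.25 and 1.27, and B2m lower, at 0.704 and 0.872. More than 2-fold lower were 2 members in the control-labelled library, Psmb9 (0.328) and Tap1 (0.462 [0.0826 to 4.68] on 6 and 2 UMIs), neither of which passed the filter, against 26.3% of all genes. In the resistant-labelled library 1 was, Tap1 (0.368), against 23.7%.

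CD8+ T cells of the T cell libraries could be split by interferon-stimulated genes, none of which is a member. Cells with UMIs of at least 3 of 7 such genes (163 and 179 cells) were set against cells with none (669 and 834), and the ratio was above 1 for all 9 members in both libraries, with an interval that reached 1 for Nlrc5 in the resistant one (1.18, 0.911 to 1.51). Of all genes, 43.9% and 47.3% had a ratio above 1. Tapbp led, at 416 against 188 CPM (2.21) in the sensitive and 318 against 177 CPM (1.80) in the resistant library. Tap1 stood at 294 against 193 CPM (1.52) and 241 against 172 CPM (1.40).

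Past 1.5-fold were 4 members in the sensitive library, Tapbp, Nlrc5 (1.59), Tap1 and Tap2 (1.51), against 7.31% of all genes, and 1 in the resistant library, Tapbp, against 6.35%. With the filter on summed UMIs these backgrounds were 6.28% and 5.30%. The chains differed less, H2-K1 by 1.15 and 1.16, H2-D1 by 1.12 and 1.22 and B2m by 1.13 and 1.11. Psmb8 (1.39 and 1.30) and Psmb9 (1.36 and 1.26) lay between. Depth was close, at medians of 4198 against 3827 and 4579 against 4456 UMIs per cell.

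Cycling CD8+ cells, a split chosen after the data had been seen, carried fewer chain UMIs in proportion. Cells with at least 3 of 6 cycling genes (73 and 165) had H2-K1 at 1434 against 2366 CPM (0.606) and 1570 against 2198 CPM (0.714) of cells with none (980 and 1027). H2-D1 stood at 0.614 and 0.713 and B2m at 0.729 and 0.793. Nlrc5 was at 26.6 against 78.5 CPM (0.338) and 46.5 against 80.0 CPM (0.581). More than 1.5-fold lower were 3 members in the sensitive library, H2-K1, H2-D1 and Nlrc5, against 17.1% of all genes, and 1 in the resistant library, Nlrc5, against 12.4%. Tap2 (0.811 and 0.933) and Tapbp (0.763 and 0.776) were also under 1. Psmb9 was instead higher, at 1.10 and 1.23, and in the resistant library so were Tap1 (1.19) and Psmb8 (1.10), which stood at 0.954 and 0.995 in the sensitive one. Cycling cells were deeper, at medians of 9959 and 10361 UMIs against 3734 and 4084, and the part of depth was not tested.

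**Figure D5:**
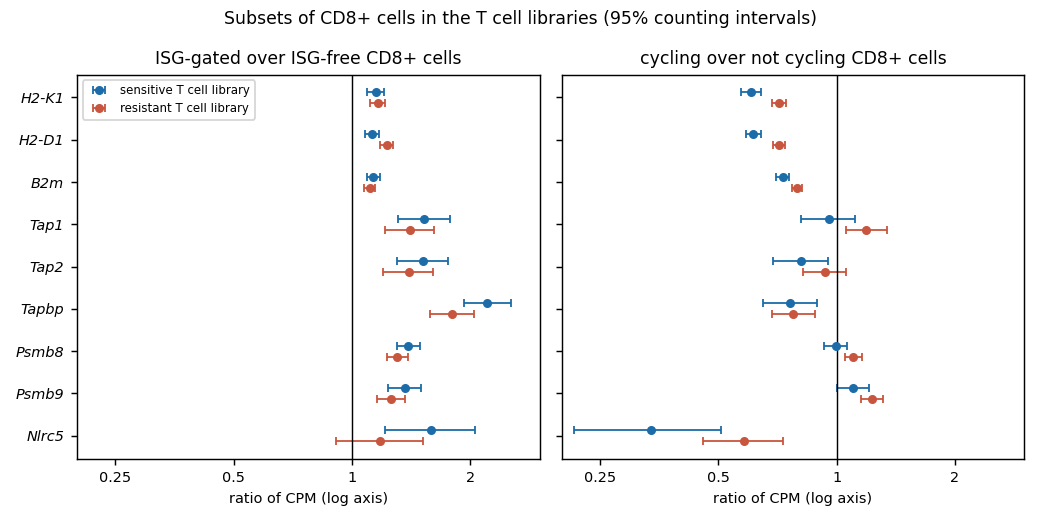
Ratio of levels (log axis) between CD8+ T cells with interferon-stimulated genes and without (left) and between cycling and not cycling CD8+ T cells (right), in the sensitive (blue) and resistant (red) T cell libraries, with 95% counting intervals. All points of the left panel are over 1, with Tapbp farthest, and H2-K1, H2-D1, B2m, Tap2, Tapbp and Nlrc5 are under 1 in both libraries of the right panel.

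The genes whose levels ran most like the mean of the members over 16 gate-by-library points (8 gates of each T cell library, on log2(CPM + 10)) were Clic1, a chloride intracellular channel protein gene (Pearson r 0.889), Epb41, a membrane skeleton protein gene (0.888), Brms1 (0.885), Crlf3 (0.874) and Fau, a ribosomal protein precursor gene (0.872), among 12213 genes compared. The points share libraries and differ in depth. Each member's own r with the mean of the other 8 ran from 0.366 (Tapbp) to 0.839 (Tap2). Tapbp was thus the member least like the rest across gates, and Psmb9 spanned the widest range, 3.86 on the log2 scale.

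H2-K1 and H2-D1 values carry a limit of their own. BALB/c mice have class I alleles of another haplotype than the C57BL/6 strain behind mm10, so reads of H2-K1, H2-D1 and related heavy chain genes may be lost or assigned to one another. Of 451 words of 50 bases at the end of each reference transcript, 2 of H2-K1 (0.443%) and 43 of H2-D1 (9.53%) recurred in another gene, and 0 of the other 7 members did. These words come from the reference alone, so they cannot show how many BALB/c reads were lost or moved.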

How the data were processed

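Droplet libraries (Chromium 3′ v3) were aligned by the authors to mm10 with Cell Ranger (6.0.0 for T cell and 3.0.1 for whole-tumor libraries, per the file headers), and the authors deposited raw UMI counts per gene and barcode, without normalization. Gene and barcode names, the other values in these files, were deposited as text. T cell and whole-tumor libraries list different features and were never set against each other. T cell libraries were made from cells enriched with a Pan T Cell Isolation Kit and CD90.1 depletion.

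Barcodes under 500 detected genes or over 10% mitochondrial UMIs were dropped from T cell libraries, and those under 200 genes or over 20% from whole-tumor libraries, whose median mitochondrial share was 0%. The highest Scrublet scores (scanpy 1.11.5) marked 112 and 159 putative doublets in the T cell libraries, at 0.8% per 1000 barcodes, and these were removed. A cell was gated to the marker list with the largest detected share if at least 2 markers were seen and the next list reached at most 50% of it. For competing lists S100a8 and S100a9 were not counted. The rule was set on markers alone, after marker counts had been seen. CD8+ cells were T cells with a Cd8a or Cd8b1 UMI and no Cd4 UMI. Gates under 10 cells were left out.

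UMIs were summed per gate and scaled to CPM. Intervals are exact, at 95% (scipy 1.17.1, numpy 2.4.6, pandas 2.3.3), and cover counting error only. No model was fitted, since each group had 1 library. Genes entered the background with at least 100 UMIs over both T cell libraries, or, within a library and between whole-tumor libraries, with at least 20 UMIs expected in the smaller group at the mean level. The latter replaced a filter on summed UMIs (100 or 20) after its shares had been seen, because a sum favors genes high in the deeper group. That first filter gave, for cancer cells against another gate of the sensitive and resistant T cell libraries, 21.6% and 21.3% (T cells), 14.1% and 14.1% (fibroblasts), 25.2% and 24.6% (macrophages), 61.7% and 58.3% (neutrophils) and 7.83% and 8.48% (dendritic cells), for whole-tumor cancer cells 13.6% and 12.3% (T cells) and 47.9% and 55.5% (neutrophils) in the control- and resistant-labelled libraries, and 20.0% and 12.4% for cycling cells. For members lower in cancer cells it gave 15.9% and 17.6% (neutrophils of the T cell libraries), and, in the control- and resistant-labelled libraries, 24.3% and 17.3% (neutrophils) and 14.5% and 17.3% (macrophages), and for the pathway lists 15.6% higher than in T cells and 22.4% and 20.7% lower than in fibroblasts. A fold of 2 was read between gates and of 1.5 between libraries and CD8+ subsets.

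All 9 members were computed in each comparison, and where one is not named its comparison's count or range covers it. Of the other pathway genes, the named ones had the largest folds past 1.5 (up to 5 per comparison, at least 20 UMIs in the higher group, interval excluding 1), and the 5 genes most like the members were named by Pearson r. A gene that this rule also named is not reported here. The members and lists were chosen with earlier results of these data known. Summing and interval steps were tested on simulated data. Alternatives were equal weight per cell, scaling by the median gene, Leiden clusters, 3 markers, no mitochondrial limit, doublets kept, no UMI of other cells' genes and, added after seeing the data, the neutrophil settings.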

Additional observations from a re-analysis of the deposited data

Results flagged for a closer look

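Psmb9, the LMP2 subunit of the immunoproteasome, went opposite ways in different gates between the T cell libraries. Its ratio of sensitive to resistant was 1.35 in cancer cells and 1.46 in fibroblasts, with intervals above 1, and 0.889 in T cells and 0.9504 in CD8+ T cells, with intervals under 1. Each side rests on 1 library, and the difference between gates was not tested.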

How the results depend on the processing

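Of 2185 ratios of a member recomputed under one changed setting, 1980 stayed within the interval of the reported value. Of ratios whose interval excluded 1, 12 crossed to the other side of 1, and of ratios whose interval spanned 1, 86 crossed, 16 of them to a value beyond that interval. Of the former, scaling by the median gene turned H2-D1 (0.969) and B2m (0.934) of cancer cells over neutrophils in the sensitive T cell library, H2-D1 (0.897) and B2m (0.990) in the resistant one, H2-D1 (0.879) and Tapbp (0.907) in the control-labelled whole tumor, Psmb8 over macrophages (0.936) and B2m over dendritic cells (0.945) in the resistant T cell library, and Psmb8 of sensitive over resistant T cells (0.958) and CD8+ cells (0.989). In the control-labelled library, Leiden clusters turned Psmb8 over T cells (1.19), and equal weight per cell turned B2m over macrophages (1.16). Of the latter, scaling took H2-K1 (0.806), H2-D1 (0.803), Tap1 (0.863) and Psmb9 (0.877) over macrophages and Tap2 over neutrophils (0.794) in the sensitive T cell library, and Psmb9 over neutrophils (0.733) in the resistant-labelled whole tumor, under 1 and beyond their intervals. The rest of the 16 came with equal weight per cell (6), Leiden clusters (2), 3 markers (1) and no mitochondrial limit (1). Apart from the scaling, which divides every ratio by the median, the cause was not tested.

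Counts of members past the fold that moved by over 1.5 times were these. Members more than 2-fold lower in cancer cells than in neutrophils became 2, 4 and 2 in the sensitive and resistant T cell and the control-labelled libraries with median scaling, 1 in the sensitive T cell library with Leiden clusters or doublets kept, and, with equal weight per cell, 1 in the resistant T cell and 0 in the resistant-labelled library. Those lower than in macrophages became 1 in the control-labelled library with Leiden clusters or without cells holding other cells' genes, and 0 in the resistant-labelled one with equal weight per cell. For the other counts, the values follow. With median scaling they became 3 (over fibroblasts), 0 (over macrophages) and 0 (over neutrophils) for the sensitive T cell library, 4 (under T cells) and 1 (over neutrophils) for the control-labelled whole tumor, and 0 for sensitive over resistant fibroblasts, and members above 1 in CD4+ cells became 3. Smaller shifts under this scaling were 3 over fibroblasts in the resistant and 3 under dendritic cells in the sensitive T cell library, 2 over neutrophils in the resistant-labelled whole tumor and 6 for resistant-labelled over control neutrophils. With equal weight per cell they became 4 (under T cells) in the resistant T cell library, 4 and 0 (under T cells) in the control- and resistant-labelled whole tumors, 2 and 0 for sensitive over resistant cancer cells and fibroblasts, and 1 for cycling cells of the sensitive library. Leiden clusters gave 0 (over macrophages) in the sensitive T cell library, 1 (under T cells) in the control-labelled library, 1 and 0 for sensitive over resistant cancer cells and fibroblasts, 7 for resistant-labelled over control macrophages and 2 for interferon-stimulated CD8+ cells of the sensitive library. Keeping doublets gave 0 over macrophages in the sensitive library, and no mitochondrial limit gave 1 over neutrophils in the resistant one. Without thinning, 8, 8, 6 and 8 members, in place of 4, 3, 3 and 3, had a UMI in at least 50% of cancer cells of the sensitive and resistant T cell and the control- and resistant-labelled whole-tumor libraries. No setting turned a ratio of sensitive- or resistant-labelled over control-labelled neutrophils, or of resistant- over control-labelled cancer cells, under 1, nor one of sensitive over resistant cancer cells or fibroblasts.

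With 1 library in each group, there was no replicate to leave out. No paired analysis was possible because the groups share no second replicate. Depth limits the whole-tumor values, where Nlrc5 rests on few UMIs in every gate, and Tap1 and Tap2 do so in T cells and in macrophages and cancer cells of the control-labelled library.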

Other observations

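Among the regulators, Ciita, the master regulator of class II genes, was at 17.0 CPM in cancer cells and 0.238 CPM in fibroblasts of the sensitive T cell library, on 42 and 3 UMIs, a ratio of 71.5 with an interval of 22.9 to 361. The chemokine gene Cxcl9 stood the other way, at 50.3 CPM in cancer cells and 209 CPM in fibroblasts of that library, although it was 33.5-fold higher in cancer cells than in T cells (1.502 CPM).

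In macrophages of the T cell libraries, Fcgrt, which transports antibodies and belongs to the class I heavy chain family, was 3.43-fold higher in the sensitive than in the resistant library (602 against 176 CPM), while Cxcl9 stood at 0.466 (141 against 302 CPM).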
